A study of Homo sapiens with 14 samples.

Results

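The 41 genes described here were grouped as genes of the terminal differentiation of stratified squamous epithelium. They were followed in KYSE510, an established cell line from an esophageal squamous cell carcinoma. Several are not confined to that stage, such as S100A2 of basal keratinocytes and the widely expressed S100A16. The 41 were chosen by name. The list holds cornified envelope precursors, cross-linking enzymes, scaffold and membrane proteins, kallikrein proteases, protease inhibitors and other secreted proteins, serpins and S100 proteins. All 41 were found by gene name in both deposited expression tables, which list 63677 genes each. A gene was kept in a table where its mean over the 6 libraries reached 1 FPKM, a level scaled to transcript length and to library size. That left 20 of the 41 in the EZH2 table and 26 in the LAT1 table. All 20 were among the 26, and 15 genes passed in neither table.

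The study knocked down EZH2, the histone methyltransferase of Polycomb repressive complex 2, and LAT1, the large neutral amino acid transporter encoded by SLC7A5. Every RNA library came from KYSE510 cells that had received an siRNA with the lipid reagent RNAiMAX 48 h before, so the controls were transfected too. The EZH2 series held siEZH2-1, siEZH2-2 and the control siRNA siNC, and the LAT1 series held siLAT1-2, siLAT1-3 and its own siNC, with 2 libraries in each of the 6 groups. CUT&Tag samples of the same study were not analysed here. The model is 1 tumour line in culture, measured at 1 time point, and nothing in the labels ties the 2 libraries of a group to separate cultures. The p-values therefore reflect library-to-library spread, which may be technical. In bulk RNA, fewer cells of a kind and less RNA per cell cannot be told apart.

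As background, keratinocytes that leave the basal layer stop dividing and build a cornified envelope under the plasma membrane: precursor proteins such as involucrin, loricrin and the small proline-rich proteins are laid on a scaffold of envoplakin and periplakin and joined by transglutaminases. Kallikreins then cut the junctions between the outermost cells, held in check by inhibitors such as LEKTI. Many envelope and S100 genes lie together in the epidermal differentiation complex on chromosome 1. In the normal esophagus, which does not fully keratinise, cornulin, the small proline-rich proteins, MAL and RHCG mark the upper layers, and squamous carcinomas commonly lose them.

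Estimated depths were 21060000 to 27180000 reads for EZH2 libraries and 12760000 to 16700000 for LAT1 libraries, recovered from the step sizes of short genes, of whose values 87.6% to 91.4% came out whole within 0.12 reads. EZH2 averaged 17.1 FPKM in siNC, and was at 40.6% of that with siEZH2-1 and 36.4% with siEZH2-2. SLC7A5 averaged 410.3 FPKM in siNC of the LAT1 series, and was at 20.3% of that with siLAT1-2 and 26.0% with siLAT1-3. In the EZH2 series SLC7A5 was also at 24.9% of siNC with siEZH2-1 and 78.6% with siEZH2-2. All 7 general squamous markers stood above 1 FPKM in both tables, with KRT5, a basal keratin, at means of 489.7 and 467.5 FPKM. Keratins of simple epithelium were present too, KRT8 at means of 420.2 and 351.7 FPKM, while KRT19 averaged 0.0783 FPKM in the EZH2 table and 2.20 in the LAT1 table. Of the 4 endothelial markers, CDH5 averaged 1.02 FPKM in the LAT1 table and the others stayed below 1 FPKM in both. The 9 immune markers stayed below 1 FPKM in both tables and their summed level was at most 0.37 FPKM in any library. Of the 7 fibroblast markers, COL1A2, DCN and PDGFRA were listed at 0 in the whole EZH2 table. Their summed level there was 0.96 to 1.18 FPKM in siNC, 1.13 to 1.39 with siEZH2-1 and 1.49 to 1.52 with siEZH2-2, while in the LAT1 table siNC held 2.09 to 2.20 FPKM, siLAT1-2 2.37 to 2.53 and siLAT1-3 2.54 to 2.56.

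The terminal precursors of the envelope were close to silent in this line. Of the 11 envelope precursors, 8 stayed below 1 FPKM in both tables: IVL (involucrin), LOR (loricrin), CRNN (cornulin) and the small proline-rich genes SPRR1A, SPRR1B, SPRR2A, SPRR2D and SPRR3. The other 7 genes below 1 FPKM in both tables were TGM3, an envelope transglutaminase, MAL and RHCG, membrane proteins of upper esophageal layers, KLK7, a kallikrein of the skin surface, SERPINB2, an inhibitor of plasminogen activators, and S100A7 and S100A8. Across these 15 genes and 12 libraries the highest value was 0.45 FPKM, for S100A8 in a siLAT1-3 library. LOR was listed at 0 in all 12 libraries, and IVL, RHCG and S100A7 were listed at 0 in all 6 libraries of the EZH2 table. The 15 were set by means that include the knockdown libraries, so that they stayed low is no result, and a gene at these levels was not tested. TGM1, outside this set but below the filter in the EZH2 table, measured 0.93 and 0.92 FPKM in siNC, 1.11 and 1.12 with siEZH2-1, and 0.85 and 0.79 with siEZH2-2. The small proline-rich genes are closely related copies, so reads may be shared among them, and the same holds for S100A7 with its neighbouring copy.

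The promoter of IVL is shown because it heads this silent set, and that of EMP1 because EMP1, described below, was among the most reduced members after EZH2 knockdown. Each run gives the 250 bases before the annotated start, 5′ to 3′ on the strand of the gene, from RefSeq on GRCh38.p14. Capitals mark matches to TGANTCA, where N is any base, and to TATAAA, the TATA box. TGANTCA is looser than the AP-1 site, which reads TGAGTCA or TGACTCA, and its matches are called AP-1 matches here.
IVL, chr1:152908296-152908545, plus strand: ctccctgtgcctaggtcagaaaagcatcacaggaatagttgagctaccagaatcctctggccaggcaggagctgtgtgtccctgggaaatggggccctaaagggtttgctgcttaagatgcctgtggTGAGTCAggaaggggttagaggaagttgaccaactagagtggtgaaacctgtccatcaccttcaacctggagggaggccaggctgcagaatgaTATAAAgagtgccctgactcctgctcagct
EMP1, chr12:13196476-13196725, plus strand: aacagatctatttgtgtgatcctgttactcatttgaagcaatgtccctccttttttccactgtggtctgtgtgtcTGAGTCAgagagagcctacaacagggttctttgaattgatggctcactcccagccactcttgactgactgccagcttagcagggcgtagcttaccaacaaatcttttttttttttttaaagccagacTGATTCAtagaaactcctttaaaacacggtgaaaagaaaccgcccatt
In IVL an AP-1 match lies from -123 to -117 and a TATA match from -30 to -25, counted back from the start. In EMP1 the AP-1 matches lie from -175 to -169 and from -48 to -42, and no TATAAA was found. The match from -48 to -42 reads TGATTCA and fits only the looser pattern. The IVL window holds 0 CpG and the EMP1 window 3.

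Over the whole list, 31 of the 41 genes had promoter windows in RefSeq, with 38 starts. A match to the looser pattern TGANTCA on either strand was found in 14 of the 31 genes. The share was 8.06% of all 27303 genes with a window of that length. A TATAAA match was also found in 14 of the 31, against 13.0% of all genes. Among the 12 matched genes below 1 FPKM in both tables, 7 held an AP-1 match and 9 a TATA match, and their median CpG count was 1. Among the 15 matched genes kept in both tables, 5 held an AP-1 match, 3 a TATA match and 9 a GGGCGG match, the GC box, and their median CpG count was 4, against 11 for all genes. GGGCGG was found in 2 of the 12 silent genes and in 46.2% of all genes. AACCNGTT, a Grainyhead site, was found in 2 of the 31 and in 1.85% of all genes. Of the 31 genes, 14 lie on chromosome 1 and 6 on chromosome 19, so neighbouring members are not independent. A match describes letters in a window and not a bound site.

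**Figure D1:**
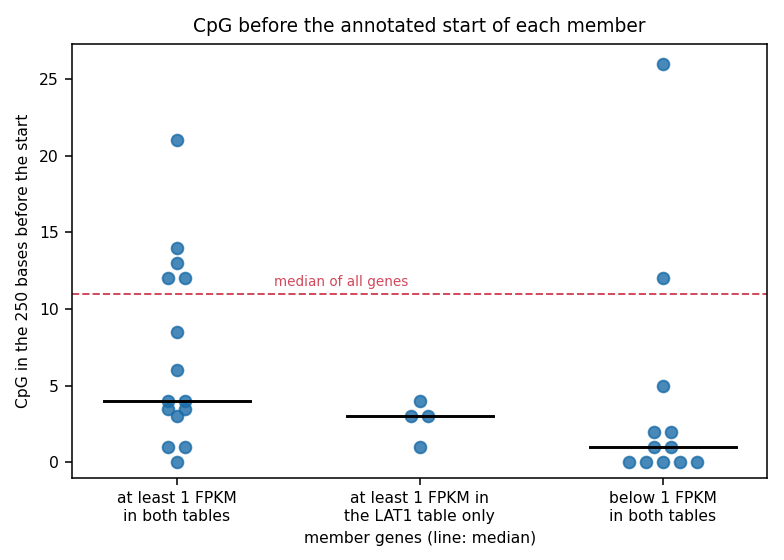
CpG in the 250 bases before the annotated start (vertical axis, count) for the 31 members with a RefSeq window, in 3 classes by level. Points are genes (median over starts where several are listed), black lines medians and the dashed line the median of all genes, 11. The medians are 4, 3 and 1 from left to right, and the silent class also holds the highest count, 26 for MAL.

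The line did express 6 of the 10 cross-linking, scaffold and membrane genes in both tables. These 6 were PPL, EVPL, SCEL, EMP1, LYPD3 and ANXA1, with no transglutaminase among them. Also kept in both were 4 of the 6 S100 genes and 3 of the 4 kallikreins. So were 3 of the 6 inhibitors and secreted proteins and 2 of the 4 serpins. In siNC of the EZH2 series the highest levels were S100A2, a calcium-binding protein of basal keratinocytes, at 194.6 ± 10.0 FPKM (SD, n = 2) and ANXA1, an annexin cross-linked into the envelope, at 189.9 ± 1.58, and these 2 overlapped. S100A14, KLK5 and S100A16 followed at 117.3, 114.4 and 108.4 FPKM, again with overlapping neighbours. EMP1, an epithelial membrane protein, was sixth at 46.8, and CSTB, SERPINB5, PPL and CSTA followed between 33.4 and 24.7 FPKM without overlap between neighbours. In siNC of the LAT1 series S100A2 was again first, at 190.9 ± 6.70 FPKM (n = 2), followed by S100A16 at 131.4, S100A14 at 123.9 and ANXA1 at 100.5. CSTA, PPL, KLK5 and SERPINB5 formed a run of overlapping levels there, from 33.6 down to 32.4 FPKM. At the threshold, the lowest means inside the EZH2 table were S100A9 at 1.72 and CNFN at 1.79 FPKM and the highest outside was TGM1 at 0.953. In the LAT1 table the lowest inside were SPINK5 at 1.32 and CNFN at 1.33 FPKM, and the highest outside was S100A8 at 0.258.

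**Figure D2:**
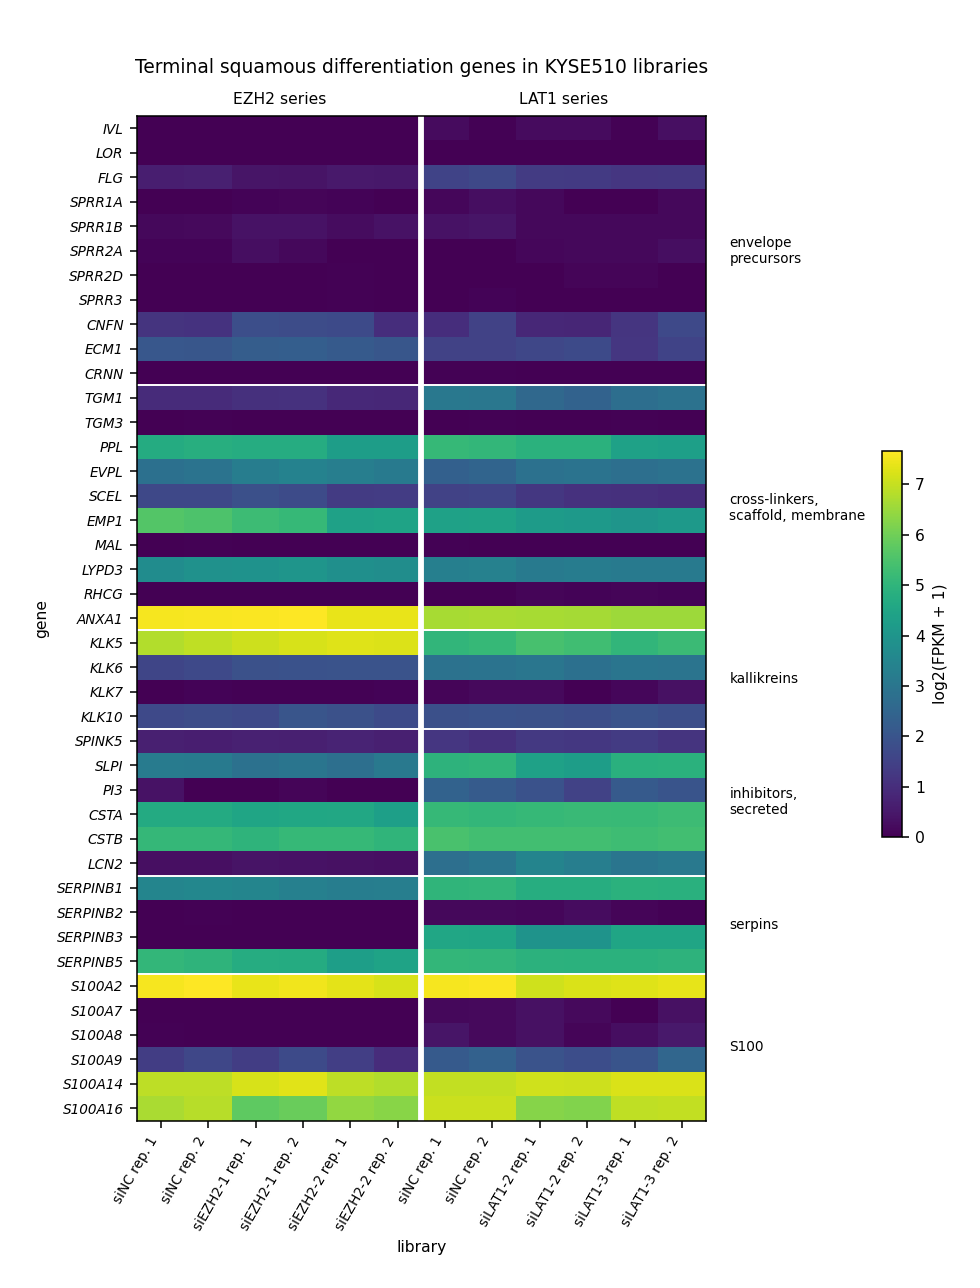
Level of all 41 members (rows, grouped by role) in the 12 libraries (columns), as log2(FPKM + 1) on the colour scale; the white vertical line separates the 2 separately deposited tables. Most envelope precursors are dark in every library, while S100A2, S100A14, S100A16 and ANXA1 are bright in all 12, KLK5 is brighter in the EZH2 series, and SERPINB3, TGM1, SLPI, PI3 and LCN2 are brighter in the LAT1 series.

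The siNC libraries of the 2 series listed several members at different levels. Of those given here, SERPINB3, TGM1, LCN2 and PI3 were kept through the LAT1 table alone, so they are given as values only. SERPINB3, squamous cell carcinoma antigen 1, was listed at 0 in both siNC libraries of the EZH2 table and stood at 22.3 and 21.9 FPKM in those of the LAT1 table. TGM1, the transglutaminase that anchors the envelope to the membrane, was at 0.93 and 0.92 FPKM in the EZH2 table and at 7.33 and 7.16 in the LAT1 table. SLPI, a secreted inhibitor of leukocyte elastase, was at 8.18 and 7.82 against 30.2 and 31.6 FPKM. SLPI was kept in both tables, and its siNC levels in the 2 series did not overlap. LCN2, an iron-carrier protein of inflamed epithelium, was at 0.24 and 0.24 against 5.90 and 6.89 FPKM, and PI3 (elafin) at 0.29 and 0 against 4.27 and 3.60. KLK5, a kallikrein that starts the protease cascade of shedding, went the other way, with 108.1 and 120.7 FPKM in the EZH2 table and 32.1 and 34.0 in the LAT1 table. EMP1 was at 48.3 and 45.3 against 19.7 and 20.3 FPKM.

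Among the 20 members kept in both tables, 5 differed between the siNC groups by at least 1 on the log2(FPKM + 1) scale, SERPINB1, SLPI and KLK6 higher in the LAT1 table and EMP1 and KLK5 lower. Over the 10804 genes kept in both tables the share was 6.40%, with 3.31% higher and 3.08% lower. The median difference was 0.11 for these members and -0.12 for all these genes. The other 6 members, SERPINB3, TGM1, PI3, LCN2, FLG and SPINK5, reached 1 FPKM through the LAT1 table alone, so their higher level there follows from how they were kept and is given as values only. The tables were deposited separately and no source says that they were normalized together, so no test was made and a batch, a culture or a processing difference cannot be told apart. Genes outside the list differed too: KRT13, a keratin of esophageal suprabasal layers, had a siNC mean of 0.24 FPKM in the EZH2 table and 38.4 in the LAT1 table, SERPINB4 0.05 and 16.7, and EHF, an epithelial ETS factor, 0.13 and 12.8. SERPINB3 and SERPINB4 are near-identical copies, and the counting may have divided their reads.

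**Figure D3:**
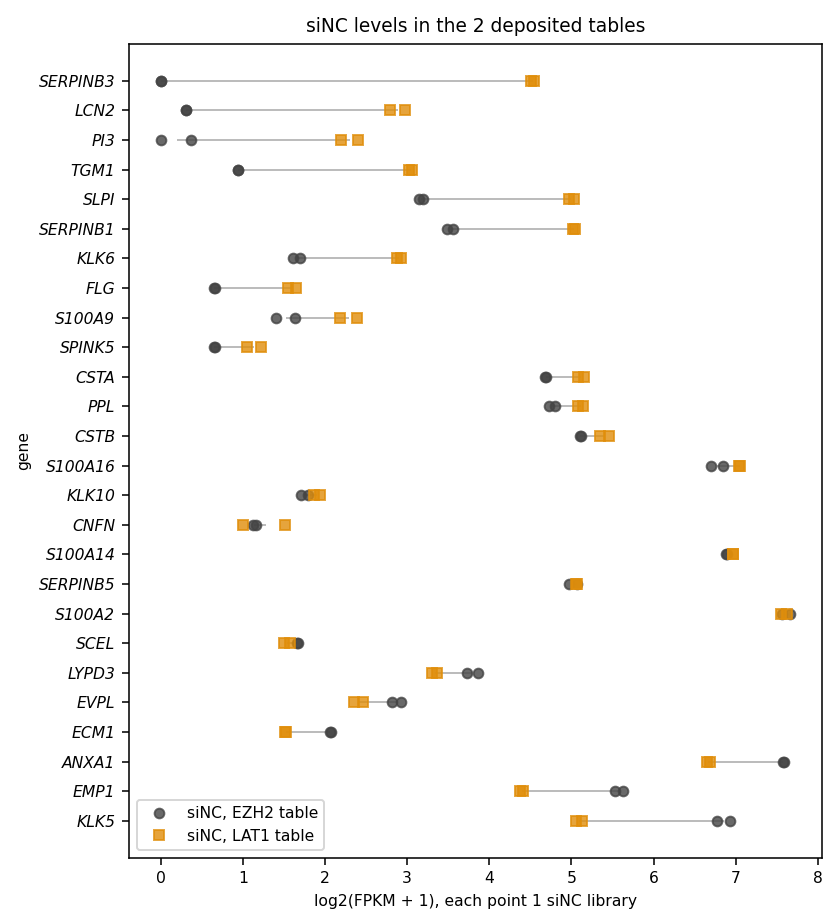
Level of the 26 kept members (rows) in the siNC libraries, as log2(FPKM + 1) on the horizontal axis; circles are the 2 libraries of the EZH2 table, squares the 2 of the LAT1 table, and lines join the group means. SERPINB3, LCN2, PI3, TGM1 and SLPI are far to the right in the LAT1 table, and EMP1 and KLK5 to the left. SERPINB3, LCN2, PI3 and TGM1 were kept through the LAT1 table alone.

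With EZH2 knockdown the expressed members moved in both directions. With limma on log2(FPKM + 1) over 11585 genes and an adjusted p under 0.05, the mean of both siRNAs differed from siNC for 8 of 20 members, against 30.0% of all genes tested. KLK5, KLK6 and EVPL were higher (3 of 20, against 17.0% of all genes), and PPL, EMP1, S100A16, S100A2 and SERPINB5 were lower (5 of 20, against 13.0%). The median member difference was -0.08, against 0.03 for all genes. By siRNA, 6 of 20 were called with siEZH2-1 (27.2% of all genes) and 11 of 20 with siEZH2-2 (24.8%). Those called in 1 direction with each siRNA were EVPL and KLK5, higher (8.93% of all genes), and EMP1, S100A16 and SERPINB5, lower (4.05%), and 0 members were called in opposite directions (0.570% of all genes). Between the siRNAs, 7 of 20 differed, S100A16 higher with siEZH2-2 than with siEZH2-1 (7.40% of all genes) and 6 lower (8.86%). Fold changes below are on the log2(FPKM + 1) scale with the standard error of the fit, and understate the change of low genes. The squamous marker sum was 985 to 1074 FPKM in siNC, 1006 to 1039 with siEZH2-1 and 858 to 946 with siEZH2-2, and 2 of its 7 genes were called lower with the mean of both siRNAs. The simple epithelial sum (KRT8, KRT18 and KRT19) was 493 to 542 FPKM in siNC, 535 to 591 with siEZH2-1 and 430 to 467 with siEZH2-2, with 0 of 2 tested genes called by limma (mean of both siRNAs). The part of either list in these results was not tested. Without siNC replicate 1 the mean count was 4 and without siNC replicate 2 it was 5. The siEZH2-1 count was 1 without siEZH2-1 replicate 2 or without siNC replicate 1. The siEZH2-2 count was 4 to 7 without any one of its own or the siNC libraries.

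Among the scaffold and membrane genes, EMP1 fell most. It measured 48.3 and 45.3 FPKM in siNC, 37.2 and 34.0 with siEZH2-1, and 19.9 and 20.7 with siEZH2-2, so that the 3 groups did not overlap. The changes were -0.38 ± 0.07 (adjusted p = 0.00815) and -1.16 ± 0.07 (adjusted p = 0.000187), and the siRNAs differed by -0.78 ± 0.07 (adjusted p = 0.000870). EVPL, envoplakin of the scaffold, measured 6.07 and 6.63 FPKM in siNC, 8.52 and 9.60 with siEZH2-1 and 8.65 and 7.75 with siEZH2-2. Both knockdown groups lay above siNC, by 0.45 ± 0.09 (adjusted p = 0.0125) and 0.32 ± 0.09 (adjusted p = 0.0384). PPL, periplakin and the partner of envoplakin in the scaffold, measured 25.4 and 26.8 FPKM in siNC, 25.7 and 26.0 with siEZH2-1, and 18.1 and 18.1 with siEZH2-2. It fell with siEZH2-2 by 0.51 ± 0.05 (adjusted p = 0.00141), while siEZH2-1 stood within the siNC range, and the siRNAs differed by -0.49 ± 0.05 (adjusted p = 0.00234). SCEL (sciellin) and ANXA1 also fell with siEZH2-2, by 0.32 ± 0.08 (adjusted p = 0.0338) and 0.18 ± 0.05 (adjusted p = 0.0322). LYPD3, a surface protein of the upper layers, was not called with either siRNA.

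Leaving out siEZH2-1 replicate 2 ended the siEZH2-1 calls of EMP1 (adjusted p = 0.0581) and EVPL (0.0825), and leaving out siNC replicate 1 did the same (0.0555 and 0.0732). The siEZH2-2 calls of SCEL and ANXA1 were lost in each of the 6 fits with 1 library left out, and that of EVPL without any one of the 4 libraries compared, with a highest adjusted p of 0.177. The siEZH2-2 call of EVPL was also lost after quantile normalization (0.0572) and median centring (0.0575), and that of ANXA1 after median centring (0.0690). Without the filter on low values EVPL was called with neither siRNA (0.0647 with siEZH2-1 and 0.136 with siEZH2-2), and with the replicate block its siEZH2-2 call was lost (0.0797). The siEZH2-2 calls of EMP1 and PPL held in each of these fits. For the mean of both siRNAs, the PPL call was lost without siNC replicate 2 (0.0652) and the EVPL call without siNC replicate 1 (0.0882), and with both siRNAs pooled into 1 group EMP1 (0.112) and PPL (0.364) were not called. The mean calls of KLK5, KLK6 and S100A2 were also lost with a library left out: KLK5 without siNC replicate 1 (0.0587), KLK6 without either siNC replicate, siEZH2-1 replicate 2 or siEZH2-2 replicate 1 (0.0521 to 0.174), and S100A2 without either siNC replicate or siEZH2-1 replicate 1 (0.0683 to 0.153).

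In the S100 group, S100A16 and S100A14 went apart with siEZH2-1. S100A16, a widely expressed S100 protein, measured 102.8 and 114.0 FPKM in siNC, 52.9 and 58.8 with siEZH2-1 and 84.1 and 77.9 with siEZH2-2. Both knockdown groups lay below siNC and siEZH2-1 lay lowest, with changes of -0.94 ± 0.08 (adjusted p = 0.000690) and -0.41 ± 0.08 (adjusted p = 0.0123). The siRNAs differed by 0.53 ± 0.08 (adjusted p = 0.00768). S100A14, an S100 protein of epithelial cell borders, measured 117.4 and 117.2 FPKM in siNC, 144.8 and 157.1 with siEZH2-1, and 118.2 and 109.6 with siEZH2-2. It rose with siEZH2-1 by 0.36 ± 0.06 (adjusted p = 0.00886), whereas siEZH2-2 overlapped siNC, and the siRNAs differed by -0.40 ± 0.06 (adjusted p = 0.00852). S100A2 measured 187.5 and 201.7 FPKM in siNC, 169.4 and 180.5 with siEZH2-1, and 162.1 and 147.3 with siEZH2-2. It fell with siEZH2-2 by 0.33 ± 0.07 (adjusted p = 0.0171). S100A9, which pairs with S100A8 to form calprotectin, was not called. The siEZH2-1 call of S100A14 was lost without siEZH2-1 replicate 2 (adjusted p = 0.0637) or siNC replicate 1 (0.0514), and the siEZH2-2 calls of S100A16 and S100A2 without siEZH2-2 replicate 2 (0.0534 and 0.0706) or siNC replicate 2 (0.0593 and 0.0885).

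The starts of S100A16 and S100A14 lie within the same stretch of chromosome 1, and their promoters are shown because these neighbours took opposite directions with siEZH2-1. The S100A16 run belongs to 1 of its 2 listed starts, and neither run holds a TGANTCA or TATAAA match.
S100A14, chr1:153616326-153616575, minus strand: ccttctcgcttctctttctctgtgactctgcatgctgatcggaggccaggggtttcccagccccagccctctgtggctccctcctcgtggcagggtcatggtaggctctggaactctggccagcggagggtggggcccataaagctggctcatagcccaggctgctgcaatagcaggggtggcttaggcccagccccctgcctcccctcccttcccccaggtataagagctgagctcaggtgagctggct
S100A16, chr1:153613138-153613387, minus strand: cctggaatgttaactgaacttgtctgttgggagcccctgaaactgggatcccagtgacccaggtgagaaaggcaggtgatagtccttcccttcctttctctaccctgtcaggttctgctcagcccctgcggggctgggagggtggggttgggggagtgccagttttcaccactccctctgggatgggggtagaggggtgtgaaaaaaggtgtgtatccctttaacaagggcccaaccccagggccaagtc
The S100A14 window holds 4 CpG and the S100A16 window 1.

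KLK5 rose with each EZH2 siRNA, and KLK6 with siEZH2-2. KLK5 measured 108.1 and 120.7 FPKM in siNC, 135.4 and 146.3 with siEZH2-1, and 156.6 and 151.0 with siEZH2-2. Both knockdown groups lay above siNC, by 0.30 ± 0.07 (adjusted p = 0.0249) and 0.43 ± 0.07 (adjusted p = 0.00758). KLK6, a low-level kallikrein here, measured 2.05 and 2.25 FPKM in siNC, 2.71 and 2.84 with siEZH2-1, and 2.88 and 2.91 with siEZH2-2. Its groups did not overlap with siNC, but the change was called with siEZH2-2 (0.31 ± 0.08, adjusted p = 0.0322) and not with siEZH2-1 (0.26 ± 0.08, adjusted p = 0.0505), and the siEZH2-2 call was lost in each of the 6 fits with 1 library left out and after quantile normalization (0.0587). KLK10 was not called. The KLK5 call with siEZH2-1 was lost without siEZH2-1 replicate 2 (adjusted p = 0.147) or siNC replicate 1 (0.137). Without the filter on low values KLK5 was called with neither siRNA (0.113 with siEZH2-1 and 0.0526 with siEZH2-2) nor with their mean (0.0508).

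Among the serpins, SERPINB5 (maspin), an inhibitor-family protein of epithelial cells, fell with each siRNA. It measured 32.7 and 30.5 FPKM in siNC, 25.8 and 25.5 with siEZH2-1, and 18.7 and 20.9 with siEZH2-2. The 3 groups did not overlap, and the changes were -0.29 ± 0.07 (adjusted p = 0.0256) and -0.65 ± 0.07 (adjusted p = 0.00145). SERPINB1, an inhibitor of neutrophil proteases, fell with siEZH2-2 by 0.26 ± 0.07 (adjusted p = 0.0407), a call lost without any one of the 4 libraries compared (highest adjusted p 0.166). The siEZH2-1 call of SERPINB5 was lost without siEZH2-1 replicate 1 (adjusted p = 0.0807), siEZH2-1 replicate 2 (0.127) or siNC replicate 1 (0.139). None of the 3 kept inhibitors, CSTA, CSTB and SLPI, and neither kept envelope precursor, CNFN and ECM1, was called by limma with either siRNA. CNFN (cornifelin) measured 1.23 and 1.18 FPKM in siNC, 2.60 and 2.41 with siEZH2-1, and 2.31 and 1.01 with siEZH2-2, a difference of 0.67 ± 0.22 with siEZH2-1 (adjusted p = 0.0621).

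LAT1 knockdown lowered more of the list than it raised. With limma over 11678 genes, the mean of both siRNAs differed from siNC for 15 of 26 members, against 34.5% of all genes tested. Of these, 12 were lower (15.3% of all genes) and 3, LCN2, EVPL and S100A14, were higher (19.3%), and the median member difference was -0.16, against 0.01 for all genes. With siLAT1-2 16 of 26 were called (32.5% of all genes), 4 higher (18.6%) and 12 lower (13.9%), and with siLAT1-3 11 of 26 (31.4%), 2 higher (17.9%) and 9 lower (13.6%). EMP1, FLG, PPL, S100A2, SCEL, SERPINB1 and SERPINB5 were lower with each siRNA, 7 of 26 against 5.31% of all genes, and EVPL and S100A14 were higher with each, 2 of 26 against 11.2%, and 0 were called in opposite directions (1.46% of all genes). The squamous marker list moved with these results: its summed level was 1067 to 1073 FPKM in siNC, 885 to 897 with siLAT1-2, and 958 to 986 with siLAT1-3, and 5 of its 7 genes were called lower with the mean of both siRNAs. The simple epithelial sum was 467 to 482 FPKM in siNC, 406 to 420 with siLAT1-2 and 448 to 464 with siLAT1-3, with 1 of 3 genes called lower. The part of either list in the members' changes was not tested. Between the siRNAs 10 of 26 differed (25.5% of all genes), 6 higher with siLAT1-3 than with siLAT1-2 (12.4%) and 4 lower (13.1%). The siLAT1-2 count was 9 without siNC replicate 1 and 10 without siNC replicate 2, and the siLAT1-3 count was 6 without siLAT1-3 replicate 1 and 4 without siNC replicate 2. Of the calls with the mean of both siRNAs, that of LCN2 was lost without siNC replicate 1 (0.125), those of LYPD3, FLG and SERPINB5 without either siNC replicate (0.0516 to 0.121), and those of EMP1 (0.0519) and SCEL (0.0667) without siNC replicate 2. Without the filter on low values those of LCN2 (0.0978) and FLG (0.0593) were lost, and with both siRNAs pooled into 1 group 9 of the 15 were lost, LCN2 among them (0.186).

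The cross-linking, scaffold and membrane genes carried 6 of the 15 calls with the mean of both siRNAs, out of 7 tested. Of these, 1 was higher, EVPL (19.3% of all genes), and 5 were lower (15.3%). PPL measured 34.3 and 32.8 FPKM in siNC, 28.5 and 28.6 with siLAT1-2, and 19.9 and 19.2 with siLAT1-3. The 3 groups stood apart, with changes of -0.22 ± 0.04 (adjusted p = 0.00388) and -0.75 ± 0.04 (adjusted p = 2.9e-05), and the siRNAs differed by -0.52 ± 0.04 (adjusted p = 0.000148). EVPL measured 4.13 and 4.51 FPKM in siNC, 6.22 and 6.52 with siLAT1-2, and 5.94 and 6.37 with siLAT1-3. EVPL rose with each siRNA, where its scaffold partner PPL fell, by 0.47 ± 0.06 (adjusted p = 0.00181) and 0.43 ± 0.06 (adjusted p = 0.00293), and these calls held in each of the 6 fits with 1 library left out. TGM1 measured 7.33 and 7.16 FPKM in siNC, 4.96 and 4.31 with siLAT1-2, and 5.80 and 6.42 with siLAT1-3. Both knockdown groups lay below siNC, but only the siLAT1-2 change was called (-0.55 ± 0.07, adjusted p = 0.00189, against -0.21 ± 0.07, adjusted p = 0.0688), and the siRNAs differed by 0.34 ± 0.07 (adjusted p = 0.0175), a difference lost without siLAT1-2 replicate 2 (0.0744) or siLAT1-3 replicate 2 (0.0914).

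EMP1 measured 19.7 and 20.3 FPKM in siNC, 17.3 and 16.3 with siLAT1-2, and 14.9 and 16.6 with siLAT1-3. It fell by 0.24 ± 0.06 (adjusted p = 0.0187) and 0.33 ± 0.06 (adjusted p = 0.00577), and no difference between the siRNAs was called (-0.09, 95% interval -0.22 to 0.05). SCEL measured 1.83 and 1.98 FPKM in siNC, 1.36 and 1.15 with siLAT1-2, and 1.07 and 0.99 with siLAT1-3, below siNC in all 4 knockdown libraries. FLG (filaggrin), the 1 envelope precursor called, measured 1.93 and 2.14 FPKM in siNC, 1.52 and 1.48 with siLAT1-2, and 1.32 and 1.35 with siLAT1-3. The FLG changes were -0.28 ± 0.09 (adjusted p = 0.0462) and -0.38 ± 0.09 (adjusted p = 0.0166). The siLAT1-2 call of FLG was lost in each of the 6 fits with 1 library left out and that of SCEL without any one of the 4 libraries compared, while the siLAT1-3 call of SCEL was lost without siNC replicate 2 (0.0546). The siLAT1-2 call of EMP1 was lost without siLAT1-2 replicate 2 (0.0921), siNC replicate 1 (0.0653) or siNC replicate 2 (0.102), and the siLAT1-3 call of FLG without siLAT1-3 replicate 1 (0.0632), siLAT1-3 replicate 2 (0.0558) or siNC replicate 2 (0.0967). LYPD3 and ANXA1 were called lower with siLAT1-3, at -0.20 and -0.12, and the LYPD3 call was lost without any one of the 4 libraries compared (highest adjusted p 0.101) and the ANXA1 call without siLAT1-3 replicate 1 (0.0766), siNC replicate 1 (0.0536) or siNC replicate 2 (0.102).

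SERPINB3 and SLPI fell with siLAT1-2. SERPINB3 measured 22.3 and 21.9 FPKM in siNC, 14.2 and 14.4 with siLAT1-2, and 21.6 and 21.5 with siLAT1-3. The siLAT1-2 group stood alone below the rest, with a change of -0.60 ± 0.03 (adjusted p = 5.0e-05), against -0.03 with siLAT1-3 (95% interval -0.11 to 0.05), and the siRNAs differed by 0.56 ± 0.03 (adjusted p = 8.1e-05). SLPI measured 30.2 and 31.6 FPKM in siNC, 19.9 and 18.2 with siLAT1-2, and 28.0 and 28.6 with siLAT1-3. It fell by 0.67 ± 0.05 with siLAT1-2 (adjusted p = 0.000115), and the siRNAs differed by 0.55 ± 0.05 (adjusted p = 0.000364). PI3 measured 4.27 and 3.60 FPKM in siNC, 2.81 and 1.86 with siLAT1-2, and 3.49 and 3.01 with siLAT1-3, and was called with siLAT1-2 (-0.58 ± 0.15, adjusted p = 0.0238). SERPINB1 measured 31.4 and 32.1 FPKM in siNC, 26.2 and 26.1 with siLAT1-2, and 28.4 and 28.1 with siLAT1-3. It fell with each siRNA, by 0.27 ± 0.03 and 0.16 ± 0.03, the latter call lost without siNC replicate 2 (0.0553). SERPINB5 also fell with each, by 0.15 ± 0.03 and 0.14 ± 0.03.

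LCN2 went against this direction: it measured 5.90 and 6.89 FPKM in siNC, 9.99 and 8.75 with siLAT1-2, and 6.96 and 7.57 with siLAT1-3, and rose with siLAT1-2 by 0.49 ± 0.09 (adjusted p = 0.00622), a call lost without the filter on low values (0.0526). The PI3 call was lost without siLAT1-2 replicate 2 (adjusted p = 0.0781), siNC replicate 1 (0.133) or siNC replicate 2 (0.0567). Also lost were the siLAT1-2 call of SERPINB5 without siLAT1-2 replicate 2 (0.0708) or either siNC library (0.0765 and 0.0596), and its siLAT1-3 call without siLAT1-3 replicate 1 (0.0980) or either siNC library (0.109 and 0.0828). CSTA, CSTB and SPINK5, which encodes LEKTI, were not called with either siRNA. The SERPINB3 promoter is shown because the gene was called with siLAT1-2 and the LAT1 siRNAs differed in its level. It holds no TGANTCA and no TATAAA match.
SERPINB3, chr18:63661894-63662143, minus strand: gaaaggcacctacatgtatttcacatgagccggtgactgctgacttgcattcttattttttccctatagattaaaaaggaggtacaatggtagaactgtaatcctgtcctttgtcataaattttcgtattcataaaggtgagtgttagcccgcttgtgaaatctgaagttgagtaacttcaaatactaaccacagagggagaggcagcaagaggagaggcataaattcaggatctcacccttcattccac
The window holds 3 CpG.

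In the S100 group S100A16 fell and S100A14 rose with siLAT1-2. S100A16 measured 130.8 and 132.1 FPKM in siNC, 76.5 and 72.9 with siLAT1-2, and 121.6 and 124.4 with siLAT1-3. It fell with siLAT1-2 by 0.81 ± 0.03 (adjusted p = 1.6e-05), while siLAT1-3 lay below siNC without being called (-0.10 ± 0.03, adjusted p = 0.0620), and the siRNAs differed by 0.71 ± 0.03 (adjusted p = 2.8e-05). S100A14 measured 123.6 and 124.2 FPKM in siNC, 137.4 and 134.3 with siLAT1-2, and 149.8 and 150.5 with siLAT1-3. It rose with each, by 0.13 ± 0.03 (adjusted p = 0.00825) and 0.28 ± 0.03 (adjusted p = 0.000399). S100A2 measured 186.2 and 195.7 FPKM in siNC, 136.7 and 150.0 with siLAT1-2, and 156.1 and 164.3 with siLAT1-3, and fell with each, by 0.41 ± 0.05 and 0.25 ± 0.05. S100A9 was not called. Of the kallikreins, KLK5 rose with siLAT1-2 (42.4 and 38.6 FPKM against 32.1 and 34.0 in siNC, 0.28 ± 0.07, adjusted p = 0.0201) and overlapped siNC with siLAT1-3, while KLK6 and KLK10 were not called. The KLK5 call was lost without siLAT1-2 replicate 1 (0.0969), siNC replicate 1 (0.114) or siNC replicate 2 (0.0567), the siLAT1-2 call of S100A14 without siNC replicate 1 (0.0565), and the siLAT1-3 call of S100A2 without siLAT1-3 replicate 1 (0.0621) or siNC replicate 2 (0.0764).

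**Figure D4:**
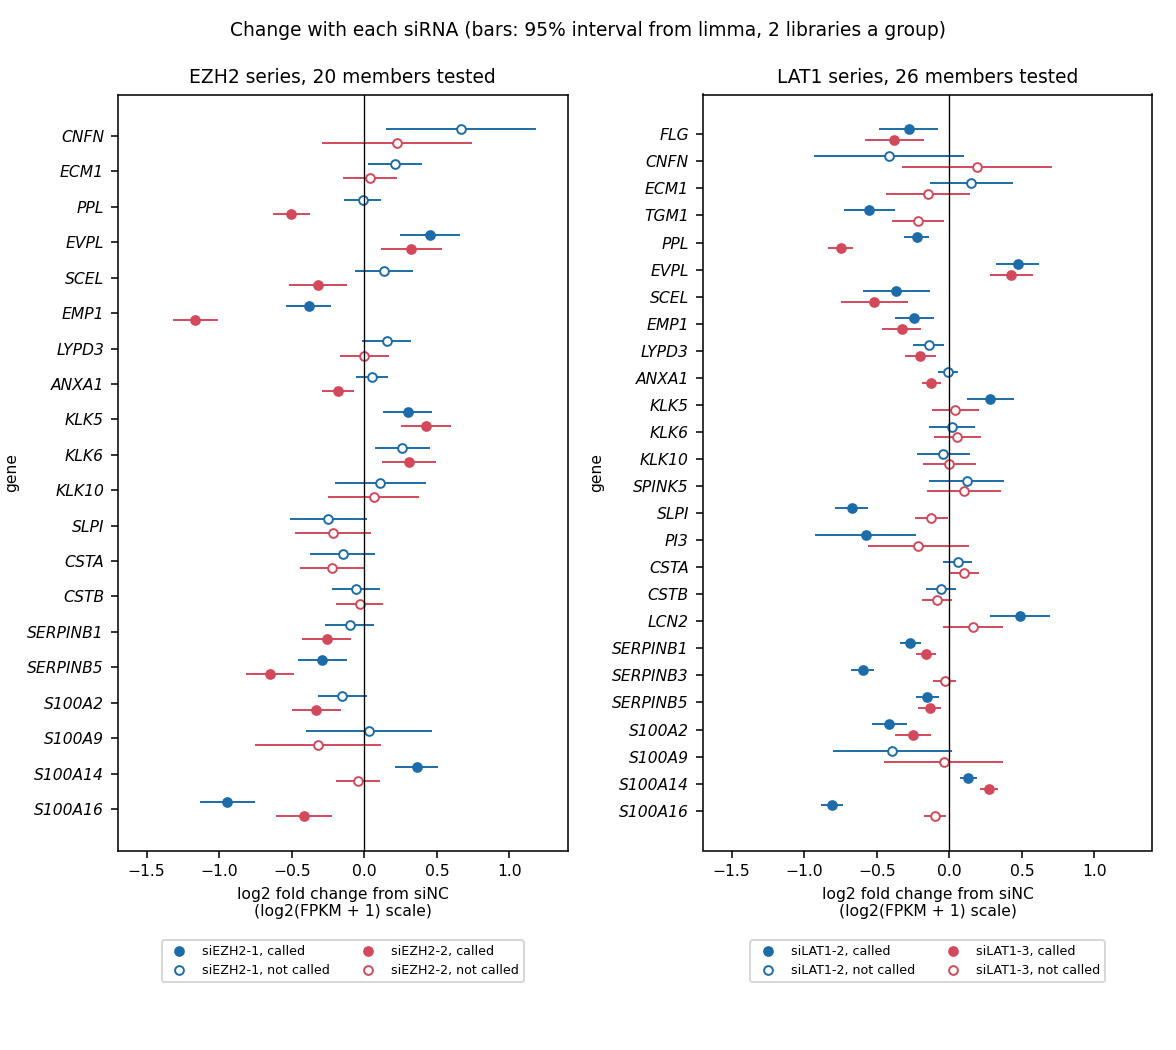
Change from siNC (horizontal axis, log2(FPKM + 1) scale) of each tested member with each siRNA, 20 on the left and 26 on the right; filled points were called, open points were not, and bars are 95% intervals from limma on 2 libraries a group. EMP1 with siEZH2-2 at -1.16 lies farthest left, and EVPL lies right of 0 with every siRNA.

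The series were compared gene by gene through their own controls. Of the 20 members tested in both tables, 8 were called with the mean of both EZH2 siRNAs and 11 with the mean of both LAT1 siRNAs. Called in the same direction in both were 6 of the 20 (30.0%, against 15.7% of the 10804 genes tested in both tables): EVPL higher, and PPL, EMP1, S100A16, S100A2 and SERPINB5 lower. These 6 are 75.0% of the 8 and 54.5% of the 11, and over all genes the shared calls were 50.7% of the EZH2 calls and 44.4% of the LAT1 calls. Called in opposite directions were 0 of the 20 members and 149 of the 10804 genes. Of the 6, EVPL, EMP1 and SERPINB5 were called by limma with every siRNA. PPL and S100A2 were not called with siEZH2-1 (adjusted p = 0.873 and 0.153), nor S100A16 with siLAT1-3 (0.0620). With both EZH2 siRNAs pooled into 1 group, the EZH2 calls of PPL, EMP1, S100A16, S100A2 and SERPINB5 were lost, and that of EVPL held. With both LAT1 siRNAs pooled, the LAT1 calls of PPL (adjusted p = 0.148 by limma), S100A16 (0.289) and SERPINB5 (0.0610) were lost. Those of EVPL, EMP1 and S100A2 held. S100A16 stood at 51.5% of siNC with siEZH2-1 and 56.8% with siLAT1-2, and at 74.7% with siEZH2-2 and 93.6% with siLAT1-3. PPL stood at 69.3% with siEZH2-2 and 58.3% with siLAT1-3, and at 99.1% with siEZH2-1 and 85.1% with siLAT1-2. EMP1 stood at 43.4% with siEZH2-2, and at 76.2%, 84.0% and 78.7% with siEZH2-1, siLAT1-2 and siLAT1-3. No test of the difference between series was made.

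**Figure D5:**
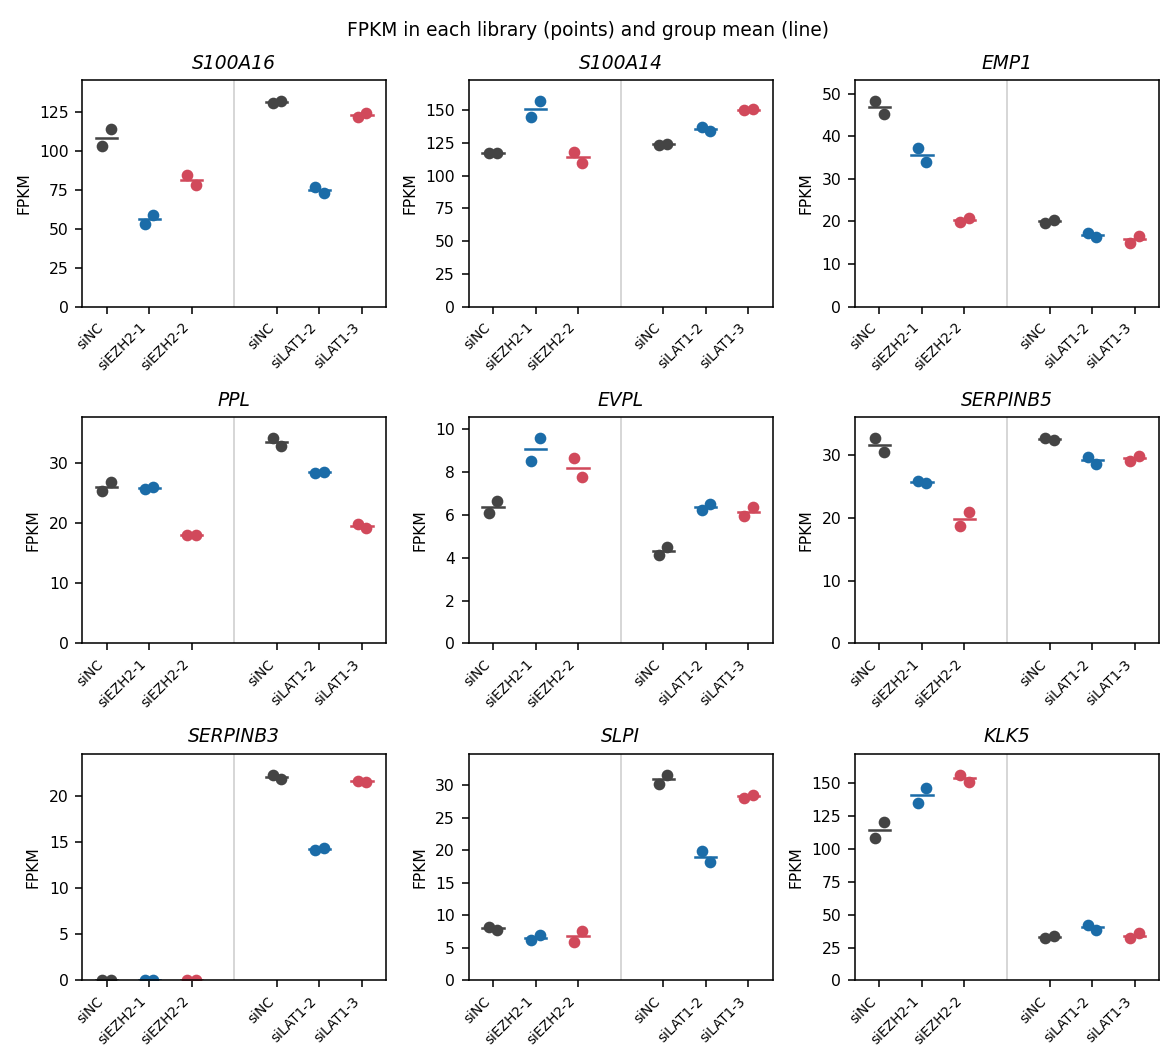
FPKM (vertical axes, from 0) of 9 members in each library of the 6 groups; points are libraries, short lines group means, and the grey line separates the 2 separately deposited tables. S100A16 is lowest with siEZH2-1 and siLAT1-2, PPL is lowest with siEZH2-2 and siLAT1-3, and SERPINB3 is near 0 throughout the EZH2 series.

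Other genes of the programme were read from companion lists, by their calls with the mean of both siRNAs. Over all genes tested these were 17.0% higher and 13.0% lower in the EZH2 series, and 19.3% higher and 15.3% lower in the LAT1 series. Of 56 further envelope and cornification genes, 6 were testable in the EZH2 series, 0 higher and 3 lower, and 13 in the LAT1 series, 0 higher and 5 lower. KRT80, a keratin of differentiating cells, fell in both, from 56.1 and 56.1 FPKM in siNC to 43.5 and 45.7 with siEZH2-1 and 35.4 and 36.8 with siEZH2-2, and by 0.62 on the log2(FPKM + 1) scale with the mean of both LAT1 siRNAs (adjusted p = 0.000141). PADI3, which converts arginine to citrulline in envelope proteins, fell from 17.6 and 17.2 FPKM in siNC to 8.96 and 9.35 with siLAT1-2 and 9.85 and 10.1 with siLAT1-3 (adjusted p = 2.4e-05 for the mean). Of 29 other proteases and inhibitors, 13 and 15 were tested, 1 and 0 higher and 4 and 5 lower in the EZH2 and LAT1 series. Of 21 other S100 and annexin genes, 13 and 16 were tested, 1 and 3 higher and 4 and 9 lower. ANXA7, an annexin of membrane traffic, rose in both series, by 0.35 and 0.47, and S100A10, the annexin A2 partner, fell by 0.29 with the mean of both LAT1 siRNAs.

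Of 47 regulators of squamous differentiation, 37 were tested in the EZH2 series, 6 higher (17.0% of all genes) and 13 lower (13.0%) with the mean of both siRNAs, and a median of -0.14 against 0.03 for all genes. NOTCH2 and JAG1, a receptor and a ligand of the Notch pathway that drives suprabasal fate, fell with the mean of both EZH2 siRNAs by 0.71 (adjusted p = 0.00440) and 0.64 (adjusted p = 0.00149). JAG1 measured 16.5 and 14.7 FPKM in siNC, 8.16 and 7.35 with siEZH2-1, and 11.5 and 12.2 with siEZH2-2, lower in all 4 knockdown libraries. FOSL1, an AP-1 subunit, fell by 0.61 (adjusted p = 0.00208), from 63.2 and 70.9 FPKM in siNC to 51.7 and 56.0 with siEZH2-1 and 37.4 and 33.2 with siEZH2-2. In the LAT1 series 40 were tested, 5 higher (19.3% of all genes) and 11 lower (15.3%). TFAP2A, an AP-2 factor of surface ectoderm, fell in both series, by 0.62 and 0.32. With the mean of both LAT1 siRNAs SOX2 rose by 0.48 (adjusted p = 0.00107) and RARG by 0.30 (adjusted p = 0.00220). JUN, another AP-1 subunit, also rose with that mean, by 0.30 (adjusted p = 0.000546).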

How the data were processed

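RNA-seq of KYSE510 was deposited as 2 tables of 6 libraries. The authors deposited FPKM values, decimals whose library sums differ, at 245634 to 275399 FPKM; the unit is not given in the labels and was taken from the description of the tables used here and from the values. The submitters' processing notes name hg19, hg38, Bowtie, Bowtie2, STAR, SEACR, Picard and Trim Galore without saying which served the RNA tables, so the build of the tables is not given in the sources used here. Each table was analysed on its own, since no source says that they were normalized together.

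Genes averaging 1 FPKM or more in a table were tested with limma 3.58.1 (R 4.3.3, trend on log2(FPKM + 1), 1 coefficient per group), two-sided, with Benjamini-Hochberg adjustment over all genes tested and a threshold of 0.05. Contrasts were each siRNA and the mean of both against siNC, and the difference between siRNAs. The fit for the mean of both siRNAs was checked on data with known changes, 50 genes at each step size. A log2 step of 0.25 was recovered for 16% of changed genes (EZH2) and 32% (LAT1). At 0.5 the shares were 74% and 80%, and at 1 they were 100% and 94%. For each target 4 unchanged genes were called. The changed genes of this check were few, and genes of low level were left out of them. In the data 30.0% (EZH2) and 34.5% (LAT1) of all genes were called. The shares recovered are therefore not the sensitivity of the calls given here. Most changes of 0.25 were missed in the check, and a member not called may still have changed by that much.

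Named genes were all members, with values in every library for those called or highest in their role, and the 2 targeted genes. Companion genes came from up to 4 per list and series. These had the largest change among those called with both siRNAs in 1 direction, and not all are named. EHF, KRT13 and SERPINB4 were chosen after their values were seen. Members and lists were chosen with earlier results of these data known. Alternatives were quantile normalization, median centring, a 5 FPKM filter, no filter, a pseudocount of 0.1, a replicate block, both siRNAs pooled and each library left out. Promoter windows came from RefSeq by gene symbol. CUT&Tag was not analysed here.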

Additional observations from a re-analysis of the deposited data

Results flagged for a closer look

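The tests of one siRNA against the other picked out 17 differences among the members, each a difference between siRNAs to the same target, on the log2(FPKM + 1) scale by limma. For siEZH2-2 minus siEZH2-1, EMP1 differed by -0.78, PPL by -0.49, SCEL by -0.45, S100A14 by -0.40, SERPINB5 by -0.36, ANXA1 by -0.23 and S100A16 by 0.53. These were 7 of 20 members, against 16.3% of all genes tested. The EMP1, PPL and S100A16 differences held in each of the 6 fits with 1 library left out. Those of ANXA1 and SCEL were lost without any one of the 4 libraries compared, that of S100A14 without siEZH2-1 replicate 2 (adjusted p = 0.0608), and that of SERPINB5 without siEZH2-1 replicate 1 (0.0862), siEZH2-1 replicate 2 (0.0883) or siEZH2-2 replicate 1 (0.0671). Without siEZH2-1 replicate 1 the count was 4 and without siEZH2-1 replicate 2 it was 3.

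For siLAT1-3 minus siLAT1-2, S100A16 differed by 0.71, SERPINB3 by 0.56, SLPI by 0.55, TGM1 by 0.34, S100A14 by 0.14 and SERPINB1 by 0.11. PPL differed by -0.52, LCN2 by -0.33, KLK5 by -0.24 and ANXA1 by -0.12. These were 10 of 26 members, against 25.5% of all genes tested. The SERPINB1 difference was lost in each of the 6 fits with 1 library left out, and that of ANXA1 without any one of the 4 libraries compared. That of LCN2 was lost without siLAT1-2 replicate 1 (adjusted p = 0.159), siLAT1-3 replicate 1 (0.149) or siLAT1-3 replicate 2 (0.0727), and that of KLK5 without siLAT1-2 replicate 1 (0.185), siLAT1-3 replicate 1 (0.169) or either siNC library (0.0697 and 0.0702). That of TGM1 was lost without siLAT1-2 replicate 2 (0.0744) or siLAT1-3 replicate 2 (0.0914), and that of S100A14 was not called after quantile normalization (0.111).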

How the results depend on the processing

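None of the 84 single-gene calls changed direction under any alternative. Each library of a series was left out in turn, also where the contrast did not compare it. With 1 library left out, 373 of 504 refitted calls stayed past the threshold and 131 did not. Quantile normalization kept 81 of 84 calls, median centring 80, a pseudocount of 0.1 83, a filter at 5 FPKM 73 of 73, no filter 46, and pooling both siRNAs 8 of 23. Calls against siNC lost with no filter went beyond those named above. With siEZH2-1 they included S100A14 and SERPINB5, and with siEZH2-2 SERPINB1, ANXA1, SCEL, KLK6, S100A16 and S100A2. With siLAT1-2 they included PI3, EMP1, SCEL, FLG and KLK5, and with siLAT1-3 ANXA1, FLG, S100A2 and SERPINB5. For the mean of both EZH2 siRNAs they included KLK6, EVPL and S100A2. Counts of members called moved by more than 1.5 times as follows. With no filter, the EZH2 counts went from 8 to 4 for the mean of both siRNAs, from 6 to 2 for siEZH2-1, from 11 to 3 for siEZH2-2 and from 7 to 2 for the difference between siRNAs, and the LAT1 difference from 10 to 5. With both siRNAs pooled as 1 group, the mean count went from 8 to 2 for EZH2 and from 15 to 6 for LAT1. Replicate numbers did not pair the libraries (correlations of same-numbered deviations -0.353 to 0.355 for EZH2 and 0.0177 to 0.0826 for LAT1). A replicate block moved siEZH2-2 from 11 to 6 and kept 70 of the 84 calls. Leaving out 1 library gave counts of 4 to 10 (EZH2 mean), 1 to 7 (siEZH2-1), 4 to 8 (siEZH2-2), 3 to 7 (siEZH2-2 minus siEZH2-1), 10 to 16 (LAT1 mean), 9 to 16 (siLAT1-2), 4 to 13 (siLAT1-3) and 7 to 8 (siLAT1-3 minus siLAT1-2). There the lone library of a group is assumed to vary like the other groups. The causes were not tested. The share of all genes called in each refit is not given here. The counts therefore do not tell a change of the members from a general change in calls. The siEZH2-1 count of 1 came without siEZH2-1 replicate 2 or siNC replicate 1, and the siEZH2-2 count of 4 and the siLAT1-3 count of 4 without siNC replicate 2. The 2 libraries a group limit what small changes can show.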
